A study of Rattus norvegicus with 18 samples.

Results

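The Wnt pathway genes grouped here with Sfrp4 are 7 listed rat genes, and 3 of them were measured in healing femora of rats of 3 ages. The 7 listed genes are the secreted Frizzled-related proteins Sfrp4, Sfrp1 and Sfrp2, the Frizzled receptors Fzd1 and Fzd2, the ligand Wnt4 and the beta-catenin gene Ctnnb1. Members were chosen by gene symbol, and Sfrp4 was put at the head of the list because of its sustained signal at 6 weeks after fracture in these same arrays. Sfrp4, Fzd1 and Fzd2 each had 1 probe set, a group of short probes that together read 1 transcript. Sfrp1, Sfrp2, Wnt4 and Ctnnb1 matched no annotated probe set and were not analysed here. The 3 measured members are 3 of 4736 genes named by a single symbol among the probe sets.

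The study followed fracture repair in intact female Sprague-Dawley rats that were older (52 weeks of age), adult (26 weeks) or young (6 weeks) at surgery. A closed fracture of the middle of the left femoral shaft was made over a steel rod, and tissue was taken at 3 days and at 1, 2, 4 and 6 weeks. No-fracture controls at each age are called 0 time. Each age and time had 1 array here, with RNA of 2 rats pooled on it, which makes 18 arrays, and the sample held callus, cortical bone and marrow together. A lower signal in such tissue can come from fewer cells of a type or from less RNA per cell, which cannot be told apart.

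Wnt proteins are secreted signals that bind Frizzled receptors together with co-receptors. In the best known branch, the signal stops a complex of Axin, Apc and Gsk3b from marking beta-catenin for destruction, and beta-catenin then acts with TCF and LEF factors on genes in the nucleus. Secreted Frizzled-related proteins carry a domain like the Wnt-binding part of Frizzled receptors and bind Wnt proteins outside the cell. The pathway is known for its part in bone formation and in fracture repair.

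The arrays were alike in scale, with a median signal of 149 to 188 in arbitrary units of fluorescence and 10.6% to 18% of probe sets below the floor of 20 used here. The young arrays of 4 and 6 weeks stood apart, with ratios of the 3' to the 5' probe set of Gapdh of 3.48 and 6.57, against 1.15 to 1.83 on the other arrays. Such ratios are a measure of how complete the labelled RNA was, so contrasts that hold these arrays were also computed without them, except the comparison of older and young rats at 4 and 6 weeks, which has no young array left then, and the difference between phases built on it. Marker lists were read beside the labelled tissue. As few probe sets lay below the floor, a signal above it says little about the tissue. In the older 0 time array 2 of 6 cartilage genes were below it, and in the young one 1 of 4 osteoclast genes. All 9 measured genes of bone matrix and osteoblasts were above the floor in the 0 time arrays, with a summed signal of 30842 in older, 60816 in adult and 141996 in young rats, and 11 of 11 measured muscle genes were above it as well. The 3 ages serve as the replicates of a time, and p-values then measure the spread between these pooled samples.

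The secreted Wnt binder Sfrp4 had a higher signal on all 15 arrays taken after fracture than on the 0 time array of the same age. It averaged 677 ± 200 at 6 weeks and 643 ± 138 at 4 weeks, against 117 ± 95.8 at 0 time (SD, n = 3 ages). In older rats the Sfrp4 signal was 40 at 0 time and 167, 389, 394, 486 and 849 at 3 days, 1, 2, 4 and 6 weeks. In adult rats the corresponding signals were 85.7 at 0 time and then 282, 356, 280.2, 699 and 458. In young rats they were 224 at 0 time and then 267, 544, 441, 743 and 725. The highest signal fell at 6 weeks in the older rats and at 4 weeks in the adult and young rats, and in all 3 ages the lowest stood at 0 time.

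Because Sfrp4 was picked on its 6-week change, its changes from 0 time are given as a description with no test. On the log2 scale, with signals below 20 set to 20, the change at 3 days averaged 1.34 ± 0.96 (SD, n = 3 ages). The means were 2.21 ± 1.01 for 1 week, 2.00 ± 1.19 for 2 weeks, 2.79 ± 0.96 for 4 weeks and 2.84 ± 1.41 for 6 weeks. The mean at 6 weeks corresponds to 7.16-fold, and the single ages were 21.2-fold in older, 5.34-fold in adult and 3.24-fold in young rats. Ordered by mean signal, the times ran 6 weeks, 4 weeks, 1 week, 2 weeks, 3 days and 0 time. The ranges over the 3 ages overlapped between every pair of neighbours in that order, and between 4 and 6 weeks the ages parted, with signals of 486 and then 849 in older rats and of 699 and then 458 in adult rats.

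**Figure D1:**
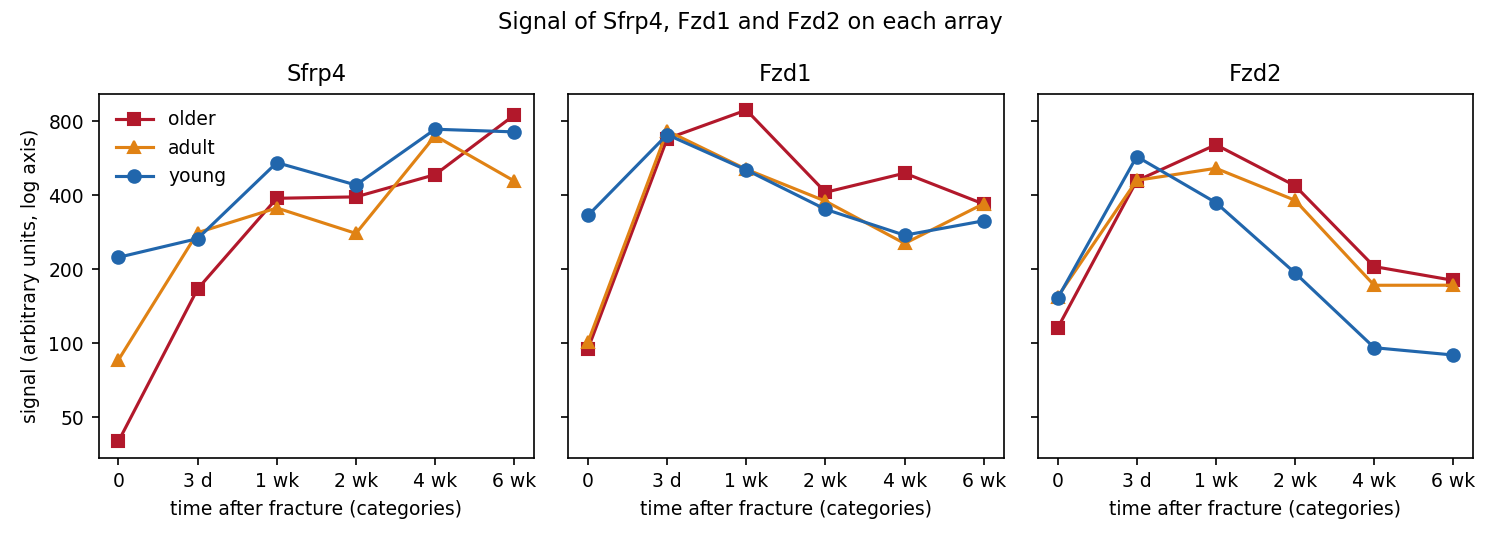
Signal of Sfrp4, Fzd1 and Fzd2 in arbitrary units on a log axis against time after fracture, drawn as categories from 0 time to 6 weeks, with 1 point for each array and 1 line for each age. Sfrp4 signals are 458 to 849 at 6 weeks, against 40 to 224 at 0 time, whereas Fzd1 and Fzd2 have their highest signals at 3 days or 1 week.

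The Frizzled receptor gene Fzd1 rose early. Its signal was 95.1 at 0 time in older rats and then 680.4, 889.5, 412, 493 and 369 at 3 days, 1, 2, 4 and 6 weeks. Adult rats had 101 at 0 time and then 732, 511, 379, 255 and 370.3. In young rats the 0 time signal was 332, and the later signals were 707, 508, 351, 276 and 315. The 3 ages lay close together at 3 days, between 680.4 and 732, while at 0 time the young signal stood far above the other ages.

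The early rise of Fzd1 passed the test at 3 days, 1 week and 2 weeks. Changes from 0 time were tested with limma, a linear model on the log2 signals with age and time as terms, at a Benjamini-Hochberg adjusted p of 0.05 over 8740 probe sets. Fzd1 was higher by 2.26 ± 0.42 on the log2 scale at 3 days (SE, adjusted p = 0.0028), by 2.06 at 1 week (adjusted p = 0.0048) and by 1.37 at 2 weeks (adjusted p = 0.042). At 4 weeks the difference of 1.15 did not pass (adjusted p = 0.12), and the 6-week mean of 1.25 is a description. Ordered by mean signal, 3 days and 1 week came first, and the ranges of 1 and 2 weeks did not overlap, whereas each further pair of neighbours in the order 2 weeks, 6 weeks, 4 weeks and 0 time did. How many other probe sets have such a gap was not counted.

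Fzd2, the second receptor gene of the family on the array, rose at the same times, and at 4 and 6 weeks its mean was near that of 0 time. In older rats the signals were 115 at 0 time and then 459, 643, 438, 205 and 180.5. Adult rats had 155 at 0 time, followed by 460.5, 516, 382, 172 and 172.5. Young rats had 152 at 0 time, followed by 576, 374, 194, 96.1 and 89.7. The young signals at 4 and 6 weeks were the 2 lowest of all 18 and came from the arrays with the raised Gapdh ratios, whose part in these values was not tested. The older and adult signals at the same times stayed above their own 0 time arrays.

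Fzd2 was higher by 1.83 ± 0.31 at 3 days (SE, limma adjusted p = 0.0017), by 1.84 at 1 week (adjusted p = 0.0021) and by 1.19 at 2 weeks (adjusted p = 0.024). The mean difference from 0 time was 0.11 at 4 weeks (adjusted p = 0.89) and 0.01 at 6 weeks, the second as a description. In terms of signal, Fzd2 averaged 511 ± 135 at 1 week and 498 ± 67.0 at 3 days, against 141 ± 22.1 at 0 time (SD, n = 3). Across all probe sets the share called higher was 14.1% for 3 days, 14.6% for 1 week, 9.49% for 2 weeks and 3.31% for 4 weeks, so calls in this direction were common at the first 3 times. The calls of both receptors rest on few arrays. Without the adult arrays the adjusted p at 3 days was 0.13 for Fzd1 and 0.082 for Fzd2, and without the older arrays it was 0.067 and 0.051, while both passed without the young arrays. The 1-week and 2-week calls of both were lost in the same way and by the methods' t-test, at adjusted p-values of 0.065 to 0.37, and the 2-week call of Fzd1 was also lost without the young arrays of 4 and 6 weeks (adjusted p = 0.054).

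Of the measured members, RefSeq's promoter table for the rat assembly GRCr8 held the window of Fzd1. It is shown because Fzd1 is a receptor whose early rise passed the test, and it runs from 250 bases before the start of the gene to 50 bases after it, at chr4:30264824-30265123 on the plus strand. The letters CTTTG, the core of the motif that TCF and LEF factors are known to bind, were searched on both strands and are in capitals.
Fzd1 promoter: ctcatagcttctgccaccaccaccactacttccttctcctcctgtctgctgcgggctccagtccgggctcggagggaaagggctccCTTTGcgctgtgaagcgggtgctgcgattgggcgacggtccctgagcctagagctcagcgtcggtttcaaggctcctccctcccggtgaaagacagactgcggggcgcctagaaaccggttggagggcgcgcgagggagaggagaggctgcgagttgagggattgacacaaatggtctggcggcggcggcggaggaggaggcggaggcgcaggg
The window held 1 match, at bases 87 to 91, and 53.8% of the 33469 promoter windows of the table hold at least 1. The longer forms CTTTGAT and CTTTGTT, which occur in 9.4% of all windows, had no match in that of Fzd1. A match is only a run of letters.

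Whether the members changed between times after fracture was asked in contrasts that leave out the 0 time and 6-week means, although the spread behind the tests came from all 18 arrays. At 4 weeks Sfrp4 signals were higher and Fzd2 signals lower than at 3 days at each of the 3 ages, and the change of Fzd2 passed the test. Fzd2 averaged 158 ± 56.1 at 4 weeks, against 498 ± 67.0 at 3 days (SD, n = 3), and it fell by 1.72 ± 0.31 on the log2 scale (SE, limma adjusted p = 0.0065). This contrast of 4 weeks with 3 days was chosen after the data had been seen, and 3.91% of probe sets were called lower and 4.87% higher in it. The Fzd2 call held without the young arrays of 4 and 6 weeks, at -1.50 (adjusted p = 0.037), and was lost without all adult arrays (adjusted p = 0.19) or all older arrays (adjusted p = 0.059).

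In the same contrast Sfrp4 had signals of 486, 699 and 743 at 4 weeks in older, adult and young rats, against 167, 282 and 267 at 3 days. The Sfrp4 difference of 1.44 ± 0.42 missed the threshold (SE, limma adjusted p = 0.059). The difference passed in 3 of 12 other settings. These were a floor of 1 (adjusted p = 0.035), an offset of 50 in place of the floor (adjusted p = 0.014) and a filter on dim probe sets (adjusted p = 0.019). No Sfrp4 signal lay below 20, so a floor of 1 or the filter left its values unchanged. What differed there was the estimate of spread and the adjustment over other probe sets. Over all the settings tried its adjusted p ranged from 0.014 to 0.38. Fzd1 differed by -1.12 (adjusted p = 0.13).

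Over the shorter steps no member was called, with each difference given as later minus earlier. From 3 days to 2 weeks Sfrp4 differed by 0.65 (adjusted p = 0.62), Fzd1 by -0.89 (adjusted p = 0.40) and Fzd2 by -0.64 (adjusted p = 0.43), and 2.01% of probe sets were called in this limma contrast. From 2 to 4 weeks the differences were 0.79 (adjusted p = 0.51), -0.22 (adjusted p = 0.93) and -1.08 (adjusted p = 0.16) in the same order, with 0.892% of probe sets called. Scaling the arrays to a common median instead turned the balance of calls between 4 weeks and 3 days to 330 higher and 493 lower, against 426 higher and 342 lower, and that between 4 and 2 weeks to 63 and 50, against 54 and 24.

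As a description over arrays that share these time points, the log2 signals of Fzd1 and Fzd2 had a Pearson r of 0.83 over the 15 arrays after fracture and of 0.74 over all 18. Sfrp4 had an r of -0.70 with Fzd1 and of -0.76 with Fzd2 over the 15 arrays. With the 0 time arrays included, of which the older and adult ones were low in all 3 genes, these were 0.48 and -0.02.

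**Figure D2:**
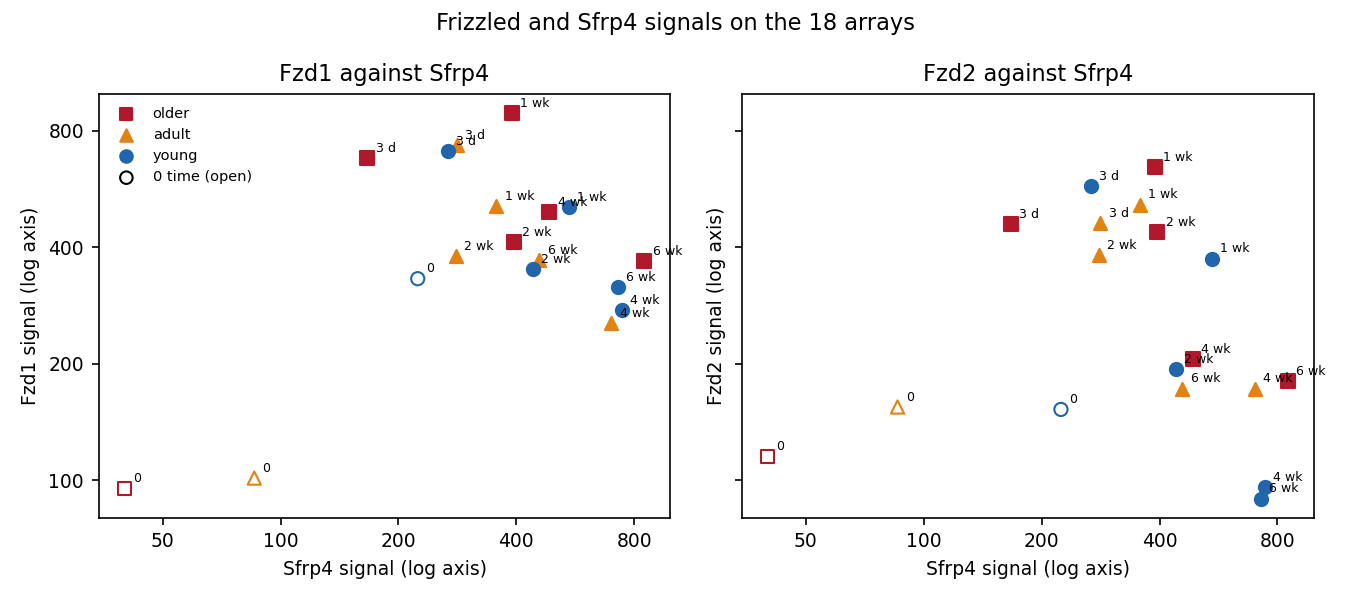
Signals of Fzd1 (left) and Fzd2 (right) against Sfrp4 on the 18 arrays, both on log axes in arbitrary units, with age by marker and colour, time as a label beside each point and 0 time as open markers. The 3-day arrays lie high in the receptor and low in Sfrp4, the 4-week and 6-week arrays mostly the other way, and the older and adult 0 time arrays are low in Sfrp4 and in both receptors.

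Some marker lists moved with or against the members after fracture, and others did not. Over the 15 arrays after fracture the bone list had an r of -0.29 with Sfrp4, -0.13 with Fzd1 and 0.02 with Fzd2. In the same order the cartilage list had -0.06, 0.02 and 0.38, and the monocyte and macrophage list -0.41, 0.66 and 0.53. With the 0 time arrays included, the bone list had 0.77, 0.76 and 0.36. The 11 measured fibrous matrix genes had a mean log2 signal over the ages of 10.28 at 0 time and of 12.56, 12.79, 12.48, 11.64 and 11.50 at the 5 later times. Like the receptors, this list was highest at 3 days and 1 week. At 4 and 6 weeks it stayed above 0 time, while the mean of Fzd2 was then near its 0 time level. Over the 15 arrays after fracture the r of this list was 0.94 with Fzd2, 0.77 with Fzd1 and -0.69 with Sfrp4. The 6 erythroid genes ran the other way, at 12.14 at 0 time, 8.24 at 1 week and 11.63 at 6 weeks, with an r of -0.94 to Fzd2 and of 0.69 to Sfrp4. The 4 osteoclast genes stood at 9.02 at 0 time, 8.67 at 3 days, 11.79 at 2 weeks and 11.20 at 6 weeks, with an r of 0.61 to Sfrp4 and of -0.67 to Fzd1. The 11 muscle genes had a mean of 12.76 at 0 time, 10.15 at 3 days and 12.16 at 6 weeks, with an r of 0.74 to Sfrp4 and of -0.81 to Fzd1. The 4 granulocyte genes had an r of 0.66 to Sfrp4 and of -0.78 to Fzd2. These r values leave out the 0 time arrays. Over all 18 arrays Sfrp4 had an r of -0.14 with the muscle, -0.07 with the erythroid and -0.18 with the granulocyte list. With the fibrous and osteoclast lists the r of Sfrp4 was then 0.54 and 0.71. The r of the fibrous list was then 0.91 with Fzd1 and 0.75 with Fzd2, and that of the osteoclast list with Fzd1 was 0.09. The summed fibrous signal ranged from 80480 to 92186 at 3 days and from 43065 to 63035 at 6 weeks, against 7406 to 58002 at 0 time, and no gene of that list was below the floor in the 0 time arrays. The part of these cells in the results for Sfrp4, Fzd1 and Fzd2 was not tested.

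Whether the level of the members after fracture differed with age was asked of the 15 fractured arrays, with the 5 times as replicates of an age. Fzd2 was 0.75 ± 0.21 higher in older than in young rats on the log2 scale (SE, n = 5 times), and higher at 4 of the 5 times. This did not pass the test in limma (adjusted p = 0.23). Fzd1 differed by 0.41 (adjusted p = 0.34) and Sfrp4 by -0.34 (adjusted p = 0.57). Between adult and young rats the differences were 0.58 for Fzd2, 0.06 for Fzd1 and -0.39 for Sfrp4, and between older and adult rats they were 0.17, 0.35 and 0.05. The share of probe sets called was 0% in each of these 3 contrasts by limma. At an unadjusted p under 0.05, 516 were higher and 587 lower in older than in young rats, 394 and 341 in adult than in young rats, and 142 and 218 in older than in adult rats.

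Split by phase, the difference of Fzd2 between older and young rats was of like size early and late. At 1 and 2 weeks Fzd2 had signals of 643 and 438 in older rats, against 374 and 194 in young rats. At 4 and 6 weeks it had 205 and 180.5 in older rats, against 96.1 and 89.7 in young rats. The differences were 0.98 ± 0.17 at 1 and 2 weeks (SE, limma adjusted p = 0.44, with 0% of probe sets called, and 240 higher and 261 lower at an unadjusted p under 0.05) and 1.05 ± 0.17 at 4 and 6 weeks (adjusted p = 0.10, with 0.149% called). The late comparison rests on the young arrays with raised Gapdh ratios. Fzd1 differed by 0.52 and 0.53 and Sfrp4 by -0.32 and -0.19 in the 2 phases, and the difference between phases passed for none of the 3 (adjusted p = 1.00 for each), where 0.0229% of probe sets were called.

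Set against the 0 time array of the same age, Fzd1 changed more in older and adult than in young rats by the test, and Sfrp4 is described with no test, since it was picked on 0 time and 6-week values. The change of Sfrp4 averaged over the 5 later times was 3.33 in older, 2.19 in adult and 1.19 in young rats on the log2 scale. That of Fzd1 was 2.50 in older, 2.06 in adult and 0.29 in young rats. Older exceeded young rats by 2.21 ± 0.39 for Fzd1 (SE, limma adjusted p = 0.010), and adult exceeded young rats by 1.77 (adjusted p = 0.029). The Sfrp4 difference was 2.14 ± 0.52 between older and young rats and 1.00 between adult and young rats. The single changes of Fzd1 ran from 1.955 to 3.225 in older, from 1.332 to 2.854 in adult and from -0.27 to 1.09 in young rats.

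Fzd2 averaged a change of 1.58 in older, 0.99 in adult and 0.43 in young rats, and the difference of 1.15 between older and young did not pass (adjusted p = 0.25). Between older and adult rats the differences were 0.44 for Fzd1 (adjusted p = 0.73) and 0.59 for Fzd2 (adjusted p = 0.72), and neither passed, beside 1.15 for Sfrp4. In the own-control contrasts 3.57% of probe sets were called higher and 3.02% lower between older and young rats, 2.57% and 4.39% between adult and young rats, and 2.56% and 1.58% between older and adult rats. With the arrays scaled to a common median the older and young contrast had 309 called higher and 114 lower, against 312 and 264, the adult and young contrast 175 and 177, against 225 and 384, and the older and adult contrast 89 and 20, against 224 and 138.

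These contrasts take each age's change from 1 control array, so the error of that array enters all 5 times of its age. The later arrays alone supply the spread of these tests, and each control is assumed to vary as they do. The 0 time signals were 40 for Sfrp4 and 95.1 for Fzd1 in older rats, 85.7 and 101 in adult rats, and 224 and 332 in young rats, and after fracture no difference in level between ages passed the test given above. The young 0 time array also had the highest summed signal of the fibrous list, with 7406 in older, 20309 in adult and 58002 in young rats, and of the bone list. The part of these tissues in the difference between ages was not tested. The Sfrp4 difference was 1.31 with an offset of 50 in place of the floor. The Fzd1 call between older and young rats held under each setting tried, with an adjusted p of 0.0051 to 0.034. Every setting kept the same 0 time arrays, so how far the call depends on them was not tested. The Fzd1 call between adult and young rats was lost in 6 of 13 settings, namely with a floor of 1 (adjusted p = 0.0501), with an offset of 50 (0.060), without the young arrays of 4 and 6 weeks (0.068), and without the arrays of 1, 2 or 6 weeks (0.051, 0.071 and 0.061).

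**Figure D3:**
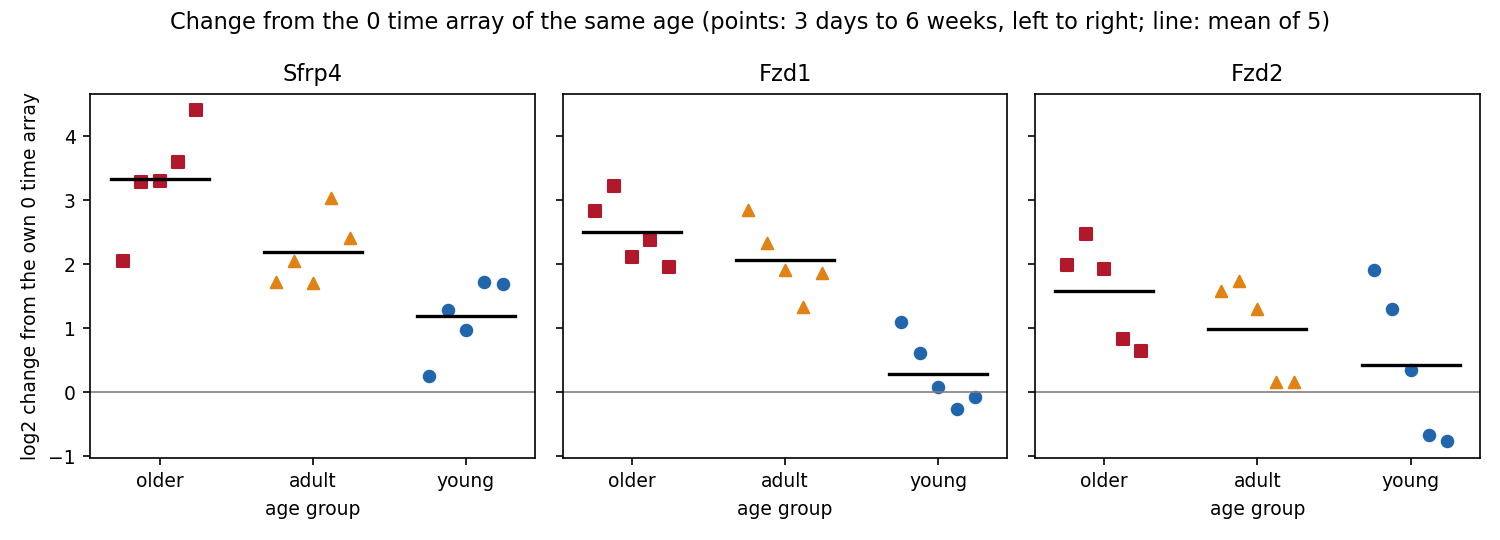
Log2 change of Sfrp4, Fzd1 and Fzd2 from the 0 time array of the same age, with older, adult and young rats from left to right, 1 point for each of the 5 later times in order and a line at their mean. The means are 3.33, 2.19 and 1.19 for Sfrp4 and 2.50, 2.06 and 0.29 for Fzd1, and each age's points share 1 control array.

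Other Wnt pathway genes were taken from a list of 138, of which 56 were measured. No ligand or gene of ligand secretion of the 23 listed was measured, and none of the 12 other secreted antagonists. Measured were 5 of 18 receptors and co-receptors, 24 of 35 relay and destruction complex genes, 6 of 17 nuclear factors, 3 of 11 cadherins and other catenins, and 18 of 22 described targets. At 3 days 13 rose and 9 fell, which is 23.2% and 16.1% of the 56, against 14.1% and 17.1% of all probe sets. At 1 week 9 rose and 10 fell, or 16.1% and 17.9%, against 14.6% and 20.4%. At 2 weeks 6 rose and 4 fell, or 10.7% and 7.1%, against 9.49% and 10.3%. At 4 weeks 1 rose and 2 fell, or 1.8% and 3.6%, against 3.31% and 1.77%. Apart from the share that rose at 3 days, these shares lay near those of all probe sets. The 56 genes were read on their brightest probe sets. Among the 4108 probe sets averaging at least 200, adjusted over these alone, 1082 were called higher and 977 lower at 3 days. Each of these is a larger share than that of the 56 genes. The part of brightness in the 3-day share was not tested. The median log2 change of the 56 genes was 0.00, 0.07, -0.16 and -0.03 at the 4 times, beside -0.13, -0.13, -0.13 and -0.04 for all probe sets. Scaling the arrays to a common median moved the median of all probe sets at 3 days, -0.13, to 0.01 and turned the balance of calls to 1439 higher and 1134 lower, against 1229 and 1493 as deposited, and at 2 weeks to 1002 and 698, against 829 and 904. In all, 27 of the 56 were called at 1 or more of these times.

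**Figure D4:**
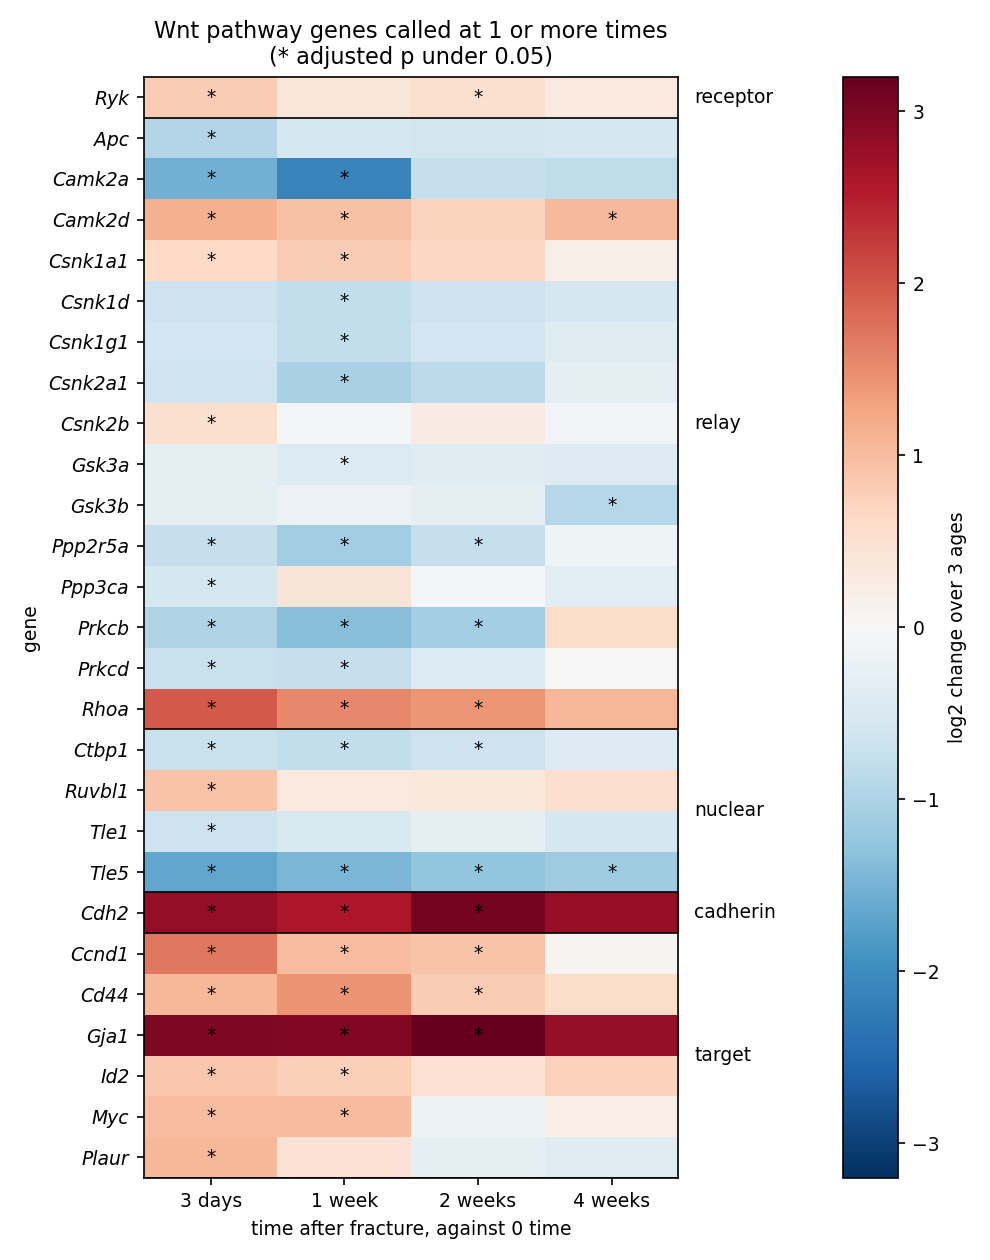
Log2 change from 0 time of the 27 Wnt pathway genes called at 1 or more of 3 days, 1, 2 and 4 weeks, by role, each a mean over 3 ages, with colour giving the change and an asterisk an adjusted p under 0.05. The described targets called rose, with Gja1 and Cdh2 the darkest rows, whereas relay genes and nuclear factors went both ways, and only Camk2d, Gsk3b and Tle5 carry an asterisk at 4 weeks.

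Among the 5 receptors and co-receptors beside Fzd1 and Fzd2, only Ryk, a Wnt-binding receptor related to tyrosine kinases, was called. Its signal averaged 734 ± 103 at 3 days, against 419 ± 29.5 at 0 time (SD, n = 3), a log2 change of 0.80 ± 0.16 (SE, adjusted p = 0.0042). It was called again at 2 weeks, at 0.51 (adjusted p = 0.046). Lgr5, a receptor for R-spondins, and the glypican Gpc3 were dim, with mean signals over 18 arrays of 70.9 and 53.6.

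Of the 24 relay genes, 4 rose and 6 fell at 3 days (16.7% and 25.0%, against 14.1% and 17.1% of all probe sets). Rhoa, a small GTPase of cell shape and movement, averaged 1263 ± 54.8 at 3 days, against 344 ± 130 at 0 time (SD, n = 3), a log2 change of 1.95 ± 0.29 (SE, adjusted p = 9.0e-04). The calcium-dependent kinase gene Camk2a had its lowest mean at 1 week, with 30.3 ± 11.6, against 130 ± 24.1 at 0 time, and fell by 2.10 (adjusted p = 0.0063). Prkcb, a protein kinase C, averaged 138 ± 15.8 at 1 week, against 361 ± 94.4 at 0 time, and fell by 1.36 (adjusted p = 0.0054). Its mean was 569 ± 268 at 4 weeks. Other, dimmer probe sets of Prkcb differed by -0.44 and 0.23 at 1 week. Camk2d, a kinase of the same family as Camk2a, was higher by 1.15 at 3 days (adjusted p = 0.0047), but 2 dimmer probe sets of this gene ran the other way, at -0.71 and -0.75.

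Genes of the destruction complex were called in both directions and are named here after their values were seen. Csnk1a1, a casein kinase that marks beta-catenin first, was higher by 0.63 at 3 days (adjusted p = 0.047) and by 0.82 at 1 week (adjusted p = 0.015), and the kinase gene Gsk3a fell by 0.43 at 1 week (adjusted p = 0.038). Csnk1a1 was read on the brighter of its 2 probe sets, and the other was not examined on its own. Ppp2r5a, a subunit of the phosphatase PP2A, fell by 1.12 at 1 week (adjusted p = 0.0016). Gsk3b, the kinase that then completes the marking, averaged 175 ± 43.4 at 4 weeks, against 321 ± 25.0 at 0 time, and fell by 0.90 ± 0.16 (SE, adjusted p = 0.016). The second Gsk3b probe set, of lower mean signal, differed by 0.06 at 4 weeks and by 1.09 at 1 week, so the fall rests on 1 of 2 probe sets. The scaffold gene Apc fell by 0.94 at 3 days on its brightest probe set (adjusted p = 0.046), while the other 2 differed by 1.75 and -0.08, so its direction depended on the probe set. Axin2, a scaffold gene that Wnt signalling itself is known to raise, averaged 62.5 ± 11.8 at 2 weeks, against 23.3 ± 7.9 at 0 time, and the log2 difference of 1.34 missed the threshold (adjusted p = 0.056). Its signal was below 20 on 4 of the 18 arrays.

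Of the nuclear factors, 3 of 6 fell at 3 days and 1 rose, beside 17.1% and 14.1% of all probe sets. Tle5, a short member of the Groucho family of co-repressors, averaged 1474 ± 131 at 3 days, against 5008 ± 2262 at 0 time (SD, n = 3), and fell by 1.66 ± 0.25 (SE, adjusted p = 9.0e-04). It was still lower at 4 weeks, by 1.15 (adjusted p = 0.032). Its 3 other probe sets differed by -0.87, -1.71 and 0.11 at 3 days. Ctbp1, a co-repressor, fell by 0.78 at 1 week (adjusted p = 0.0067), and the Groucho co-repressor gene Tle1 fell by 0.65 at 3 days (adjusted p = 0.048). The second Ctbp1 probe set, of lower mean signal, differed by -0.25 at 1 week. Ruvbl1, an ATPase of chromatin complexes that binds beta-catenin, was higher by 0.90 at 3 days (adjusted p = 0.0038), and its dimmer second probe set differed by -1.45.

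Of the 3 measured cadherins and other catenins, Cdh2 was called. It encodes N-cadherin, an adhesion protein that holds catenins at the membrane of osteoblasts and other mesenchymal cells. Its signal averaged 463 ± 217 at 2 weeks, against 76.3 ± 83.5 at 0 time (SD, n = 3), a log2 change of 3.06 ± 0.73 (SE, adjusted p = 0.019). At 0 time the signal was 17.4 in older, 39.7 in adult and 172 in young rats. The change at 4 weeks was 2.78 (adjusted p = 0.052).

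The described targets, a list chosen with earlier results of these data known, were called in 1 direction. Of 18 measured, 6 rose at 3 days (33.3%), 5 at 1 week (27.8%) and 3 at 2 weeks (16.7%), beside 14.1%, 14.6% and 9.49% of all probe sets. None fell at these times by limma (0, 1 and 0 at an unadjusted p under 0.05), beside 17.1%, 20.4% and 10.3%. The targets were read on their brightest probe sets. Among the 4108 probe sets averaging at least 200, 1082, 1014 and 815 were called higher at these times and 977, 1054 and 751 lower. That limma fit was adjusted over these probe sets alone. As a share, its calls higher lay above those of all probe sets at each time, and at 2 weeks above that of the targets. The part of brightness in the shares of the targets was not tested. The median change of the 18 was 0.50 at 3 days and 0.33 at 1 week, beside -0.13 for all probe sets at both times. Ccnd1, the cell cycle gene of cyclin D1, averaged 1615 ± 343 at 3 days, against 508 ± 131 at 0 time, a log2 change of 1.68 ± 0.24 (SE, adjusted p = 6.8e-04), and at 4 weeks it stood at 548 ± 174. Of its 4 other probe sets, 1 differed by -0.56 and 1 by 0.08 at 3 days. Cd44, a hyaluronan receptor, was higher by 1.45 at 1 week (adjusted p = 0.0011). Gja1, the gap junction gene of connexin 43, averaged 808 ± 404 at 2 weeks, against 145 ± 171 at 0 time, and was higher by 3.18 ± 0.98 (adjusted p = 0.043). Plaur, the urokinase receptor, was higher by 1.05 at 3 days (adjusted p = 0.035). Myc, named after its values were seen, was higher by 0.98 at 3 days on its brightest probe set and by 4.02 on its second.

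These counts of called genes depended on the ages kept, as did those of all probe sets. With the adult arrays left out, 0 of the 56 were called at 3 days, and 15 had an unadjusted p under 0.05, and with the older arrays left out 3 were called, and 20 had such a p.

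Over the later contrasts fewer of the 56 genes were called than at 3 days against 0 time, as among all probe sets. Between 4 weeks and 3 days 2 rose and 4 fell, or 3.6% and 7.1% of the 56, against 4.87% and 3.91% of all probe sets. Prkcb and Prkcd rose and Gsk3b, Csnk2b, Ccnd1 and Plaur fell, with Ccnd1 lower by 1.59 on the log2 scale at 4 weeks (adjusted p = 0.0024). None of the 56 was called between any ages after fracture by limma, and at an unadjusted p under 0.05 5 were higher and 3 lower in older than in young rats. At 4 and 6 weeks 1 of 56 was called between older and young rats. This was Fst, the activin antagonist follistatin, named after its values were seen, with signals of 414 and 481 in older rats, against 137 and 142 in young rats, and it was 1.68 ± 0.13 higher in older rats (SE, adjusted p = 0.047). The young values come from the arrays with raised Gapdh ratios, and the other, dimmer of the 2 Fst probe sets was not examined on its own. In the own-control contrasts none of the 56 was called higher by limma (6, 4 and 1 at an unadjusted p under 0.05 in the order older and young, adult and young, older and adult), and 1 was called lower in each, namely Prkca between older and young and between older and adult rats, and Tle5 between adult and young rats. The Prkca signal was below the floor on 15 of 18 arrays.

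The genes whose signals ran most like Sfrp4 over all 18 arrays were ranked by the Pearson r of log2 signals among 3409 probe sets with 1 gene symbol and a mean signal of at least 200. The ranking describes these arrays, which share the low 0 time signals. The closest was Mmp13, collagenase 3, with an r of 0.90 and signals of 9904 in older, 9884 in adult and 7700 in young rats at 6 weeks, against 431, 645 and 3485 at 0 time. Next were the leukocyte surface gene Cd48 (0.88), the Notch ligand Jag1 (0.88), the carboxypeptidase Cpq (0.88), and Ctsk, the collagen-degrading protease cathepsin K (0.87). The glutathione peroxidase Gpx3 (0.87), the lysosomal lipase Lipa (0.87), Mdfic (0.87), the tetraspanin Tspan3 (0.86) and the complement gene C1qb (0.86) completed the first 10. Jag1 had signals of 471, 377 and 280 at 6 weeks in older, adult and young rats, against 81.0, 140.4 and 218 at 0 time, the same order of ages at 0 time as Sfrp4.

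The 5 genes least like Sfrp4 were the glycosyltransferase Galnt5 (r = -0.91), the dynein light chain Dynlrb1 (-0.86), the Golgi gene Sys1 (-0.82), the endocytic adaptor Epn2 (-0.82) and Zfp36, whose protein binds and destabilises mRNA (-0.82). Galnt5 had signals of 420.2, 463 and 472 at 6 weeks in older, adult and young rats, against 921, 768 and 499 at 0 time. By Spearman's rank correlation only 2 of the first 10 genes were shared, so the membership of the list depends on the measure, whereas mean signal limits of 100 and 500 kept 8 and 9 of them.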

How the data were processed

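Signals of 18 Affymetrix rat arrays were analysed, 1 for each of 3 ages and 6 times. The deposited values are intensity signals on a linear scale, computed by the authors from perfect match and mismatch probes (Microarray Suite 5.0), each array being scaled to average 500. The genome build is not given in the sources used here, detection calls were not analysed here, and the number of arrays limits the precision.

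Of 8799 probe sets, 59 manufacturer controls were left out and 8740 tested. The log2 of each signal, with a floor of 20, was used as deposited without another normalization. Probe sets were named from the platform annotation and a current rat gene table (7006 with 1 symbol, 308 with several, 1426 with none), and the brightest probe set of a symbol stands for the gene. The 7 members matched 3 probe sets.

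Contrasts between times used limma 3.58.1 (R 4.3.3) with age and time as additive terms and an intensity trend (10 residual degrees of freedom), ages over the 15 later arrays (8), phases over 12 arrays (4), and the change from the own 0 time array in a fit with age by fracture terms (8), each at a threshold of 0.05 after Benjamini-Hochberg adjustment across the 8740 probe sets. The scripts were tested on simulated data. Sfrp4 had no test in any contrast that uses 0 time, and no gene had one at 6 weeks against 0 time, since Sfrp4 was selected on these values. Its tests between ages after fracture and between phases do include the 6-week arrays. Pathway genes were named as up to 4 called genes of a role with the largest change at 3 days, 1, 2 or 4 weeks. The members and lists were chosen with earlier results of these data known. Alternatives were quantile or median scaling of the arrays, another floor (1) or an added offset (50), leaving out probe sets with a mean under 200, a fit with no trend or with no age or time term, a gene's mean over its probe sets, the methods' t-test, each age or time left out, and, added after the data were seen, no young 4- and 6-week arrays. The methods' t-test set the 3 arrays of a time against the 3 of 0 time on log2 signals, with equal variances and the same adjustment. The study's own t-tests pooled more arrays than that. Figures were drawn with matplotlib.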

Additional observations from a re-analysis of the deposited data

Results flagged for a closer look

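The change of Fzd1 from the own 0 time array differed between ages by the test of the difference itself (limma, adjusted over 8740 probe sets). Older exceeded young rats by 2.21 on the log2 scale (adjusted p = 0.010, and 0.0051 to 0.034 over the settings tried, all of which kept the same 0 time arrays). Adult exceeded young rats by 1.77 (adjusted p = 0.029), a call that was lost in 6 of 13 settings, where the adjusted p reached 0.071. Each age has 1 control array, with Fzd1 signals of 95.1 in older, 101 in adult and 332 in young rats, so the 5 later times of an age share its error. No group held 4 or more arrays, so no array was tested as an outlier within its group.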

How the results depend on the processing

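The change of Sfrp4 at 6 weeks stayed between 2.06 and 3.41 under all settings tried, on the log2 scale. With 1 age left out, the 3-day change was 1.97 to 2.85 for Fzd1 (lost without adult or older arrays) and 1.75 to 1.96 for Fzd2 (lost likewise), and the methods' t-test gave 2.26 for Fzd1 with an adjusted p of 0.12. Pathway genes called, 22, 19, 10 and 3 at 3 days, 1, 2 and 4 weeks, numbered 0 to 19, 0 to 14, 0 to 15 and 0 to 7 with 1 age left out, and 2, 0, 0 and 0 by the methods' t-test after adjustment, where 18, 12, 12 and 8 had an unadjusted p under 0.05. At 4 weeks they numbered 5 with a floor of 1 or an offset of 50 and 6 without the probe sets averaging under 200. Over all 8740 probe sets 148 were called higher and 182 lower at 3 days without the adult arrays. By the methods' t-test after adjustment 181 were called higher and 115 lower at 3 days. The difference between older and young rats after fracture, -0.34 for Sfrp4 and 0.41 for Fzd1, became 2.14 and 2.21 when the own 0 time array was subtracted, which brings the 0 time signals into the contrast, so the sign for Sfrp4 turned, as it did between adult and young rats (-0.39 and 1.00). For the own-control contrast itself, Sfrp4, with no test, was 1.31 with an offset of 50. Fzd2 ranged from 0.88 to 1.42 over all settings and from 1.04 to 1.42 with 1 time left out, and passed only without the 3-day arrays. The Fzd2 mean at 6 weeks, near 0, ran from -0.30 to 0.40 with 1 age left out. Of the other results, 21 alternatives lost a call and 5 gained one, mostly with 1 age left out or by the methods' t-test. The cause was not tested. Age stands as a term in the contrasts between times, and arrays share no replicate numbers beyond it.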
